A study of Homo sapiens with 33 samples.

Results

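The circadian clock repressors and output factors described here are 10 genes chosen by symbol: the period genes PER1, PER2 and PER3, the cryptochromes CRY1 and CRY2, the nuclear receptors NR1D1 and NR1D2, the basic helix-loop-helix repressors BHLHE40 and BHLHE41, and the output factor DBP. They are 10 of the 59428 rows of a table of 3' tag read counts, and all 10 had enough counts to be tested. The study profiled poly(A) RNA of MDA-MD-231 and MDA-MD-468 breast cancer cell lines, spelled as in the labels, under inhibitors of the kinases CDK7 and CDK9, which phosphorylate RNA polymerase II at initiation and at release into elongation. In the inhibitor experiment, each line has 1 DMSO and 1 parental library, both at 0 h, and 1 library each of SY200, V50 and SY200/V50 (the combination) at 3, 6 and 12 h, which gives 22 libraries. The knockout experiment holds 11 libraries of MDA-MD-231: Parental 2 at 0 h, and, at both 72 and 96 h, an Empty vector control, knockouts of 1 kinase gene (CDK1 KO, CDK7 KO, CDK9 KO) and the double knockout CDK7/9 KO. The labels do not say that libraries of a group came from separate cultures. In the inhibitor fits, p-values rest on how far the changes differ between the 2 lines and between the DMSO and parental libraries, mostly pooled as control. In the knockout fits they rest on how far the changes differ between the 2 times. Part of this spread may be technical. The labels also do not say which compound acts on which kinase, how the genes were knocked out, or whether the knockouts are clones or pools.

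In the mammalian clock, the activators CLOCK and BMAL1 (ARNTL) bind E-box sequences and switch on the period and cryptochrome genes, whose proteins then block these activators. NR1D1 and NR1D2 repress ARNTL, BHLHE40 and BHLHE41 compete at E-boxes, and DBP activates genes that carry D-box sequences. The messages of this loop are generally short-lived, and several of these genes also respond to growth factors and stress.

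The clock elements near these genes are shown because they are the sequences through which the loop is known to act. Promoter windows (250 bases before to 50 bases after a start site) came from RefSeq on GRCh38.p14, with 13 windows for the 10 genes. In the stretches below, read 5′ to 3′ on the gene's strand, capitals mark the motif found. The E-box is CACGTG, its variant CACGTT, the D-box TTATGTAA and its variant TTACGTAA, each searched on both strands.
PER1, E-box, chr17:8152562-8152587, minus strand: cacccaggtcCACGTGcgcccgtgtg
PER2, E-box variant, chr2:238288792-238288817, minus strand: cgcgcgcggtCACGTTttccactatg
PER2, D-box variant, chr2:238288596-238288623, minus strand: ccgctgcggcTTACGTAAccgccgccgg
PER3, D-box, chr1:7784104-7784131, plus strand: agcccgcgcgTTATGTAAcgcgccccgg
NR1D2, D-box on the opposite strand, chr3:23945917-23945944, plus strand: tgacgcggcaTTACATAAtgggcgctga
NR1D2, the E-box nearer the start, chr3:23946006-23946031, plus strand: gccgcagggaCACGTGggggcggggg
BHLHE40, E-box, chr3:4979187-4979207, plus strand: tccaaCACGTGagactcatgt
BHLHE41, E-box, chr12:26125070-26125095, minus strand: gtacgttccgCACGTGagctgggtgc
PER1, NR1D2, BHLHE40 and BHLHE41 held the E-box, which 7.26% of all 35116 windows held. PER2, CRY1, CRY2 and NR1D1 held its variant (5.34% of windows). The D-box was in PER3 and NR1D2 (0.886% of windows) and its variant in PER2 (0.125%). The core of the ROR and REV-ERB element, TAGGTCA, was in CRY2 (1.85%), and the cAMP response element TGACGTCA was in none of the 10 genes and in 1.85% of windows. DBP held none of these letters in its window. The BHLHE40 and BHLHE41 stretches and the PER2 D-box variant overlap an exon in GENCODE 29, and the other stretches do not.

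Total counts ran from 16985219 to 22859779 per library. CPM is the usual depth-scaled count unit, here on total counts for the marker lists and on TMM-scaled library sizes for single genes. The MDA-MB-231 marker list had a median of 607 to 1039 CPM across the 11 inhibitor libraries of MDA-MD-231, against 18.8 to 32.2 CPM in MDA-MD-468. The MDA-MB-468 list ran from 4.67 to 12.4 CPM in MDA-MD-231 and from 365 to 495 CPM in MDA-MD-468. Median immune markers were at most 0.0779 CPM in the inhibitor libraries. In MDA-MD-231, mitochondrially encoded mRNAs took 2.17% and 2.51% of counts in the controls and at most 5.05% in the 12 h library of SY200/V50. In MDA-MD-468 they took 3.88% and 3.93% in the controls and at most 13.5% in the same kind of library. Every value below is a share of the library, so a change of total mRNA per cell is not seen in it. Rose and fell below mean changes of share, and a higher share need not be more mRNA per cell. Fewer cells and less RNA per cell cannot be told apart, and the part of the mitochondrial share in the results was not tested. Because all inhibitor controls are at 0 h, treatment and time in culture cannot be told apart against control. Combination and single agents can be compared at the same times. Fold changes come from 1 edgeR fit over all genes with the line as a block, where passing means a Benjamini-Hochberg adjusted p under 0.05, and ± is the standard error. Without the line block, 0 members passed in any treatment comparison of the inhibitor experiment.

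SY200 alone left all 10 transcripts without a call. No member passed as the mean of the 3 times, where 1.98% of all genes did and 2 members, BHLHE41 and NR1D2, had an unadjusted p under 0.05. None passed at 3, 6 or 12 h either, with 0.423%, 0.264% and 2.43% of genes called, and 2, 0 and 1 members at an unadjusted p under 0.05. DESeq2 also called 0 members in these 4 comparisons. The members' median log2 fold change over the mean of times was 0.07, beside -0.01 for all genes. The lowest values with SY200 were at 3 h, with BHLHE41 at -1.23 ± 0.41 (adjusted p = 0.206) and BHLHE40 at -0.81 ± 0.31 (adjusted p = 0.277).

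**Figure D1:**
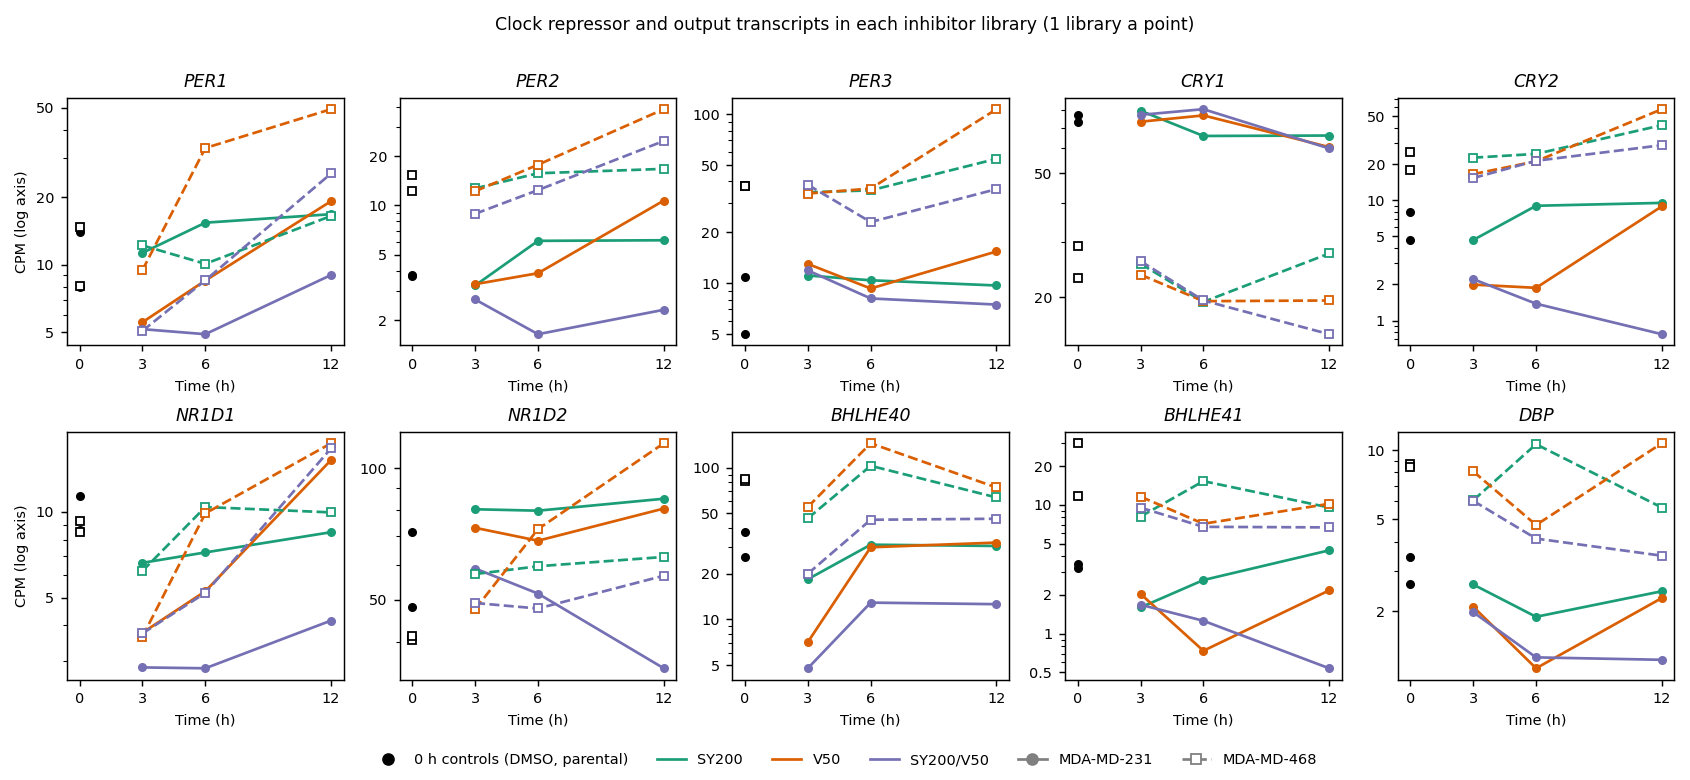
Level of each of the 10 transcripts in CPM (log axis) against time in hours, 1 point a library, with circles and solid lines for MDA-MD-231, open squares and dashed lines for MDA-MD-468, and black points for the 0 h controls. PER1, PER2, NR1D1 and CRY2 rise from 3 to 12 h with V50, and BHLHE40 is lowest at 3 h with SY200/V50, at 4.76 CPM in MDA-MD-231 and 20.0 CPM in MDA-MD-468.

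The 3 period genes rose against the controls after 12 h of V50. PER1, a period gene that also answers acutely to signalling, stood at 14.0 and 7.95 CPM in the DMSO and parental libraries of MDA-MD-231 and at 14.7 and 8.07 CPM in those of MDA-MD-468. With V50 at 3, 6 and 12 h it was at 5.55, 8.51 and 19.2 CPM in MDA-MD-231 and at 9.47, 33.1 and 49.3 CPM in MDA-MD-468. With SY200/V50 it was at 5.17, 4.91 and 9.01 CPM in MDA-MD-231 and at 5.08, 8.53 and 25.5 CPM in MDA-MD-468. Both 12 h V50 libraries lie above all 4 controls, and the DMSO and parental libraries differ from each other in both lines. PER1 rose 2.83-fold with V50 at 12 h (log2 1.5 ± 0.42, adjusted p = 0.0231). The call ended without any 1 of 4 libraries, with 1.43 without the parental and 1.89 without the V50 12 h library of MDA-MD-231, and 1.29 and 0.99 without the same libraries of MDA-MD-468. It also ended with DMSO alone as the control (1.13, adjusted p = 0.148).

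PER2, a core repressor of the loop, had control levels of 3.79 and 3.69 CPM in MDA-MD-231 and of 12.2 and 15.3 CPM in MDA-MD-468. V50 gave 3.31, 3.86 and 10.7 CPM at 3, 6 and 12 h in MDA-MD-231 and 12.2, 17.7 and 38.6 CPM in MDA-MD-468. SY200/V50 gave 2.67, 1.64 and 2.31 CPM in MDA-MD-231 and 8.89, 12.4 and 24.7 CPM in MDA-MD-468. The 12 h V50 libraries hold the highest level of each line, and the 6 h V50 libraries already lie just above both controls. The combination at 12 h is below the controls in MDA-MD-231 and above them in MDA-MD-468. PER2 rose 2.84-fold with V50 at 12 h (log2 1.5 ± 0.30, adjusted p = 0.00439), with log2 changes line by line of 1.49 (MDA-MD-231) and 1.5 (MDA-MD-468). Without the V50 12 h library of MDA-MD-231 the change was 1.40 (adjusted p = 0.0669).

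PER3, the period gene least needed for rhythm itself, was at 4.99 and 10.9 CPM in the MDA-MD-231 controls and at 37.5 and 37.7 CPM in the MDA-MD-468 controls. V50 gave 13, 9.30 and 15.4 CPM at 3, 6 and 12 h in MDA-MD-231, and 33.9, 36.3 and 107 CPM in MDA-MD-468. SY200/V50 gave 11.9, 8.12 and 7.47 CPM in MDA-MD-231, and 38.2, 23.0 and 36.0 CPM in MDA-MD-468. The 12 h V50 libraries again hold the highest level of each line. PER3 rose 2.44-fold at that time (log2 1.29 ± 0.29, adjusted p = 0.00711), or 0.79 (adjusted p = 0.166) without the V50 12 h library of MDA-MD-468. NR1D2 passed in the same comparison, which makes 4 members called higher with V50 at 12 h where 8.01% of all genes were. Under scaling to the mitochondrially encoded mRNAs, which moved the median of all genes in this comparison to -0.99, the 3 period genes stood at 0.56, 0.53 and 0.30 with adjusted p from 0.157 to 0.425, all above that median. NR1D2 was at 0.03 (adjusted p = 0.94), so none of the 4 was called, and the members called under that scaling were lower, at -1.82 (BHLHE41), -1.35 (CRY1), -1.03 (BHLHE40) and -0.97 (DBP). That scaling called 11650 of 18911 genes lower in this comparison, and BHLHE40 and DBP were near the median of all genes.

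**Figure D2:**
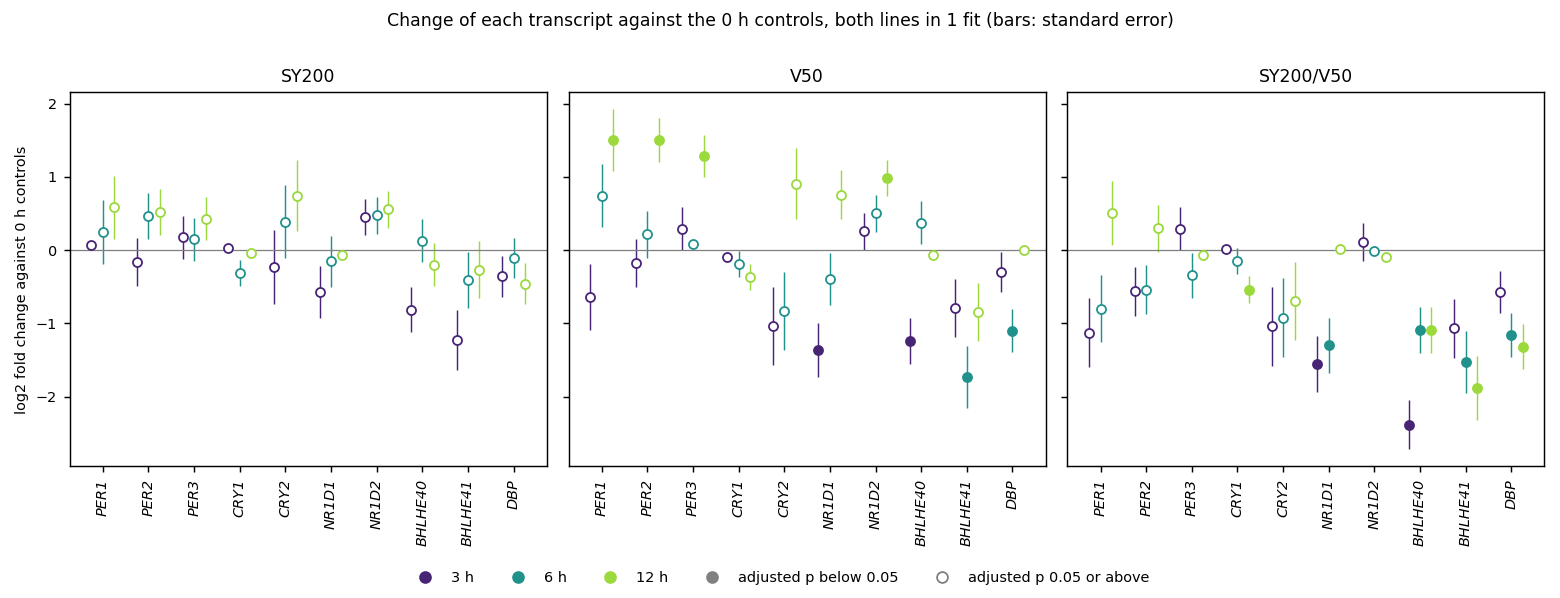
Log2 fold change of each transcript against the 0 h controls with SY200, V50 and SY200/V50 at 3, 6 and 12 h, both lines in 1 fit; filled points passed at adjusted p below 0.05, bars are the standard error and are left out where the change is within 0.1 of 0. With V50 at 12 h the filled points are PER1, PER2, PER3 and NR1D2 (log2 0.98 to 1.5), and no point is filled with SY200.

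Over the mean of 3, 6 and 12 h, the period genes were lower with the combination than with V50. PER1, PER2 and PER3 were lower with SY200/V50 than with V50 as the mean of times, by log2 values of -1.01 ± 0.30 (adjusted p = 0.025), -0.78 ± 0.22 (adjusted p = 0.0184) and -0.59 ± 0.20 (adjusted p = 0.0464). At 12 h, PER2 was lower by -1.20 ± 0.37 (adjusted p = 0.0174) and PER3 by -1.36 ± 0.35 (adjusted p = 0.00629), while PER1 was at -0.99 ± 0.50 (adjusted p = 0.129). None of the 3 passed at 3 h (-0.49, -0.39 and 0.00) or at 6 h (-1.54, -0.76 and -0.42), with adjusted p of at least 0.524. Of all 18911 genes, only 1 passed at 3 h and 2 at 6 h, so a missing call there says little about these genes. The calls over the mean of times ended when any 1 of 6 libraries was left out for PER1 (range -1.26 to -0.70), 1 of 4 for PER2 (-1.13 to -0.57) and 1 of 12 for PER3 (-0.72 to -0.44). At 12 h, PER2 was at -0.65 (adjusted p = 0.275) without the SY200/V50 12 h library of MDA-MD-231, -1.13 (adjusted p = 0.07) without its V50 12 h library, and -1.32 (adjusted p = 0.0501) without the V50 12 h library of MDA-MD-468. Without the SY200/V50 12 h library of MDA-MD-468 PER2 was at -2.33, still called. PER3 was at -0.88 (adjusted p = 0.117) without the V50 12 h library of MDA-MD-468. With no filter on low counts, the PER3 call over the mean of times ended (-0.61, adjusted p = 0.0696).

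The cryptochromes, the stronger repressors of CLOCK and BMAL1, had different levels and calls. CRY1 was between 60.0 and 80.2 CPM over the 11 libraries of MDA-MD-231 and between 15.2 and 29.1 CPM over those of MDA-MD-468. With edgeR, TMM scaling and all libraries, its only call in the inhibitor experiment other than between the lines was with SY200/V50 at 12 h, at log2 -0.54 ± 0.18 (adjusted p = 0.0206). That call was at -0.55 (adjusted p = 0.0507) without the SY200/V50 12 h library of MDA-MD-468, and at -0.45 (adjusted p = 0.0917) with the parental libraries alone as control.

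CRY2 had control levels of 7.98 and 4.67 CPM in MDA-MD-231 and of 25.3 and 17.9 CPM in MDA-MD-468. V50 gave 1.99, 1.87 and 8.90 CPM at 3, 6 and 12 h in MDA-MD-231, and 16.5, 21.1 and 57.2 CPM in MDA-MD-468. SY200/V50 gave 2.21, 1.38 and 0.77 CPM in MDA-MD-231, where the last value rests on 10 counts, and 15.3, 21.3 and 28.7 CPM in MDA-MD-468. In MDA-MD-231 the level fell below both controls at 3 and 6 h under V50 and was above both at 12 h, and it stayed below them at every time under the combination. In MDA-MD-468 the combination libraries are below, between and above the controls at 3, 6 and 12 h. CRY2 did not pass against control with the combination under TMM scaling with both controls (mean of times -0.88 ± 0.38, adjusted p = 0.0659). It passed with DMSO alone as control (-1.23, adjusted p = 0.0427), under mitochondrial scaling (-2.30, adjusted p = 6.83e-06) and in 5 of the 22 omissions of 1 library, at -1.58 (adjusted p = 0.00389) without the SY200/V50 12 h library of MDA-MD-468. That library's omission put the 12 h value at -2.88 (adjusted p = 0.0111). It was lower with SY200/V50 than with SY200 over the mean of times, by -1.18 ± 0.35 (adjusted p = 0.0106), and this call held without each of the 22 libraries in turn (range -1.88 to -0.91, the first without the SY200/V50 12 h library of MDA-MD-468). Against V50 at 12 h it was lower by -1.60 ± 0.59 (adjusted p = 0.0426), a call that ended when any 1 of 7 libraries was left out. It was at -0.87 (adjusted p = 0.354) without the SY200/V50 12 h library of MDA-MD-231 and at -3.77, still called, without that of MDA-MD-468. It also ended with the DESeq2 size factors (-1.53, adjusted p = 0.0588) or no filter on low counts (-1.63, adjusted p = 0.0648).

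The response of CRY2 to the combination was the one member difference between lines that any test called. The effect in MDA-MD-468 minus that in MDA-MD-231 was 2.08 ± 0.55 (adjusted p = 0.12, edgeR), and DESeq2 gave 2.22 (adjusted p = 0.0148). edgeR called 0 of the 10 members and 0% of all genes for the line difference of SY200, V50 and SY200/V50 alike. At an unadjusted p under 0.05 there were 0 members for SY200, 2 for V50 (CRY2 and PER1) and 2 for the combination (CRY2 and NR1D1). DESeq2 called 0, 0 and 1 members.

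NR1D1, the REV-ERB alpha receptor that represses ARNTL, fell at 3 h under V50 and under the combination. Its control levels were 8.62 and 11.4 CPM in MDA-MD-231 and 9.32 and 8.51 CPM in MDA-MD-468. V50 gave 3.77, 5.27 and 15.2 CPM at 3, 6 and 12 h in MDA-MD-231, and 3.65, 9.88 and 17.4 CPM in MDA-MD-468. SY200/V50 gave 2.85, 2.83 and 4.16 CPM in MDA-MD-231, and 3.75, 5.20 and 16.7 CPM in MDA-MD-468. All 4 of these libraries at 3 h lie below all 4 controls. SY200 at 3 h put NR1D1 at log2 changes of -0.57 (MDA-MD-231) and -0.51 (MDA-MD-468) against control, without a call. At 12 h, of the V50 and SY200/V50 libraries, only the SY200/V50 library of MDA-MD-231 is below its controls.

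NR1D1 fell with V50 at 3 h (-1.36 ± 0.37, adjusted p = 0.0491), a call that ended when any 1 of 18 of the 22 libraries was left out (range -1.63 to -1.15), and with the DESeq2 size factors (-1.34, adjusted p = 0.0557), no filter on low counts (-1.38, adjusted p = 0.0745), DMSO alone (-1.28, adjusted p = 0.0728) or parental alone (-1.47, adjusted p = 0.123) as control. With SY200/V50 it fell at 3 h (-1.56 ± 0.38, adjusted p = 0.0197) and 6 h (-1.30 ± 0.38, adjusted p = 0.0131), and as the mean of times (-0.94 ± 0.26, adjusted p = 0.00653). The 3 h call ended without the 3 h SY200/V50 library of MDA-MD-231 (-1.56, adjusted p = 0.173) or of MDA-MD-468 (-1.56, adjusted p = 0.217), or with parental alone as control (-1.66, adjusted p = 0.0529). The 6 h call ended without that library of MDA-MD-231 at 6 h (-1.07, adjusted p = 0.157). The mean of times passed without each library in turn (range -1.37 to -0.73). At 12 h the fitted change was 0.02 (adjusted p = 0.966), and without the SY200/V50 12 h library of MDA-MD-468 it became -1.24 (adjusted p = 0.0214).

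The 3' end of NR1D1 overlaps an exon of THRA on the opposite strand in GENCODE 29 (GRCh38, NR1D1 at chr17:40092787-40100725, minus strand), and no source used here gives the strand setting. The reads of NR1D1 and THRA can then not be told apart by the count alone. THRA, a thyroid hormone receptor gene, was at 0.30 ± 0.29 (adjusted p = 0.587) with V50 at 3 h and at 0.27 ± 0.29 (adjusted p = 0.608) with SY200/V50 at 3 h.

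NR1D2, the beta paralog, rose under V50 and was also higher under SY200, there without a call. It stood at 48.0 and 71.5 CPM in the MDA-MD-231 controls and at 40.4 and 41.3 CPM in the MDA-MD-468 controls. V50 gave 73.0, 68.2 and 80.8 CPM at 3, 6 and 12 h in MDA-MD-231 and 47.5, 72.5 and 114 CPM in MDA-MD-468. SY200/V50 gave 58.9, 51.6 and 34.8 CPM in MDA-MD-231 and 49.1, 47.7 and 56.7 CPM in MDA-MD-468. All V50 libraries of MDA-MD-468 and 2 of the 3 of MDA-MD-231 exceed both controls of their line. Line by line, V50 gave log2 changes of 0.32, 0.22 and 0.46 in MDA-MD-231, and 0.22, 0.82 and 1.47 in MDA-MD-468. SY200 gave 0.46, 0.45 and 0.54 in MDA-MD-231, and 0.48, 0.54 and 0.61 in MDA-MD-468, at the same times. NR1D2 rose with V50 as the mean of times (0.58 ± 0.19, adjusted p = 0.0388) and at 12 h (0.98 ± 0.25, adjusted p = 0.0141). The first call ended when any 1 of 13 libraries was left out (range 0.44 to 0.75), with no filter on low counts (0.56, adjusted p = 0.0724) and with parental alone as control (0.42, adjusted p = 0.323). It was -0.32 (adjusted p = 0.176) under mitochondrial scaling, which put the median of all genes at -0.92. The 12 h call was 0.57 (adjusted p = 0.234) without the V50 12 h library of MDA-MD-468 and 0.82 (adjusted p = 0.095) with parental alone.

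BHLHE40 (DEC1), an E-box repressor that is also an early response gene, had the lowest log2 value of the 10 under the combination at 3 h. It was also lowest as the mean of times, there within the standard error of that of BHLHE41. At 6 and 12 h, BHLHE41 and DBP had lower values than BHLHE40. Its control levels were 37.8 and 25.9 CPM in MDA-MD-231 and 81.9 and 83.9 CPM in MDA-MD-468. SY200/V50 gave 4.76, 12.9 and 12.6 CPM at 3, 6 and 12 h in MDA-MD-231, and 20.0, 45.4 and 46.1 CPM in MDA-MD-468. V50 gave 7.08, 29.9 and 32.1 CPM in MDA-MD-231, and 55.1, 145 and 74.1 CPM in MDA-MD-468. All 6 combination libraries lie below both controls of their line, whereas with V50 only the 3 h libraries and the 12 h library of MDA-MD-468 do.

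BHLHE40 fell with SY200/V50 at 3 h to 0.192 of its control level (-2.38 ± 0.34, adjusted p = 0.000783), at 6 h (-1.09 ± 0.31, adjusted p = 0.0123), at 12 h (-1.09 ± 0.31, adjusted p = 0.00808) and as the mean of times (-1.52 ± 0.22, adjusted p = 3.2e-05). The 3 h call and the mean passed without each of the 22 libraries in turn (ranges -2.60 to -2.22 and -1.62 to -1.36). The 6 h call ended without the 6 h library of MDA-MD-231 (-1.05, adjusted p = 0.108) or of MDA-MD-468 (-1.16, adjusted p = 0.0767), and with parental alone (-0.96, adjusted p = 0.0547). The 12 h call ended without the 12 h library of MDA-MD-231 (-1.03, adjusted p = 0.0988). With V50, BHLHE40 fell at 3 h (-1.24 ± 0.32, adjusted p = 0.0353), with line by line changes of -2.13 (MDA-MD-231) and -0.59 (MDA-MD-468). Without the V50 3 h library of MDA-MD-231 this was -0.71 (adjusted p = 0.412), without that of MDA-MD-468 it was -2.08, still called, and leaving out the DMSO library of MDA-MD-231 gave -1.09 (adjusted p = 0.078). Leaving out the SY200/V50 12 h library of either line gave -1.25 (adjusted p = 0.0536 and 0.0539), and the call also ended with the DESeq2 size factors (-1.20, adjusted p = 0.0511), no filter on low counts (-1.26, adjusted p = 0.0522) or parental alone (-1.11, adjusted p = 0.147).

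BHLHE41 (DEC2), its paralog, was lower under both V50 and the combination. It was at 3.47 and 3.24 CPM in the MDA-MD-231 controls and at 11.7 and 30.1 CPM in the MDA-MD-468 controls, which are far apart. V50 gave 2.04, 0.737 and 2.17 CPM at 3, 6 and 12 h in MDA-MD-231, and 11.6, 7.14 and 10.2 CPM in MDA-MD-468. SY200/V50 gave 1.68, 1.26 and 0.539 CPM in MDA-MD-231, the last from 7 counts, and 9.53, 6.76 and 6.69 CPM in MDA-MD-468. Every V50 and combination library is below both controls of its line. With V50 it fell at 6 h (-1.73 ± 0.42, adjusted p = 0.0083) and as the mean of times (-1.12 ± 0.28, adjusted p = 0.00998). These were -1.45 (adjusted p = 0.133) without the V50 6 h library of MDA-MD-231, and -0.78 (adjusted p = 0.066) without the parental library of MDA-MD-468. With DMSO alone as control the mean was -0.72 (adjusted p = 0.137).

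With SY200/V50, BHLHE41 fell at 6 h (-1.53 ± 0.42, adjusted p = 0.01), at 12 h (-1.88 ± 0.44, adjusted p = 0.00188) and as the mean of times (-1.49 ± 0.29, adjusted p = 0.000441). The 12 h change and the mean passed without each library in turn (ranges -2.92 to -1.54 and -1.85 to -1.16, the -2.92 without the SY200/V50 12 h library of MDA-MD-468). The 6 h call was -1.56 (adjusted p = 0.0699) without the 6 h library of MDA-MD-231, -1.51 (adjusted p = 0.106) without that of MDA-MD-468 and -1.14 (adjusted p = 0.0535) with DMSO alone as control. At 3 h the value was -1.07 ± 0.41 (adjusted p = 0.117).

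DBP, the D-box activator that carries clock output to metabolic genes, fell under the combination at 6 and 12 h. Control levels were 2.63 and 3.44 CPM in MDA-MD-231 and 8.67 and 8.47 CPM in MDA-MD-468. SY200/V50 gave 1.98, 1.26 and 1.23 CPM at 3, 6 and 12 h in MDA-MD-231, and 6.02, 4.13 and 3.48 CPM in MDA-MD-468. V50 gave 2.09, 1.13 and 2.28 CPM in MDA-MD-231, and 8.08, 4.73 and 10.7 CPM in MDA-MD-468. The 6 combination libraries lie below both controls of their line. Of the V50 libraries, those at 6 h are the lowest in each line, and at 12 h DBP is above its controls in MDA-MD-468. DBP fell with SY200/V50 at 6 h (-1.16 ± 0.30, adjusted p = 0.0067), at 12 h (-1.32 ± 0.31, adjusted p = 0.00206) and as the mean of times (-1.01 ± 0.21, adjusted p = 0.000742), and with V50 at 6 h (-1.10 ± 0.29, adjusted p = 0.0137). The 12 h change and the mean under the combination passed without each library in turn (ranges -1.43 to -1.23 and -1.08 to -0.92). The 6 h calls ended without a 6 h library of the same treatment. For the combination this gave -1.17 (adjusted p = 0.0605) without MDA-MD-231 and -1.17 (adjusted p = 0.0789) without MDA-MD-468, and for V50 -0.96 (adjusted p = 0.172) and -1.34 (adjusted p = 0.0517).

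The 3' end of DBP (chr19:48630030-48637438, minus strand, GRCh38) overlaps an exon of SPHK2, a sphingosine kinase gene on the opposite strand, so their reads cannot be told apart without the strand setting. SPHK2 was also lower with SY200/V50, at -0.83 ± 0.20 (adjusted p = 0.00234) as the mean of times and -1.31 ± 0.29 (adjusted p = 0.00125) at 12 h. With V50 at 6 h it was at -0.84 ± 0.28 (adjusted p = 0.038). Its part in the DBP values was not tested.

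Counted together against the 0 h controls, V50 gave 2 called members as the mean of times, 1 higher and 1 lower, where 22.3% of all genes passed, so the members' share was near the background. At 3 h and at 6 h, 2 members each were lower with V50, where 3.26% and 11.5% of genes were. In either direction, 4.1% and 23.4% of genes passed at these times. SY200/V50 gave 4 lower and 0 higher members as the mean of times (BHLHE40, BHLHE41, DBP and NR1D1), where 24.2% of genes were lower. In either direction that was 40% of members beside 48.2% of genes, so this share was near the background. At 3, 6 and 12 h, 2, 4 and 4 members were lower with the combination, beside 5.66%, 17.5% and 23.7% of genes. In either direction, 20%, 40% and 40% of members passed at these times, beside 7.54%, 34.7% and 49.6% of genes. The members' median log2 change over the mean of times was -0.26 with V50 and -0.68 with SY200/V50, beside 0.00 and 0.09 for all genes tested.

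The treatments were compared with each other over the mean of 3, 6 and 12 h and at each time. V50 against SY200 called 0 of 10 as the mean of times, with 8.3% of all genes called, 0 members at an unadjusted p under 0.05 and 0 called by DESeq2. With edgeR it also called 0 of 10 at 3, 6 and 12 h, beside 0.0159%, 4.25% and 0.82% of genes. PER2 and PER3 had an unadjusted p under 0.05 at 12 h, as did BHLHE41 and DBP at 6 h. Against control at 12 h, SY200 put the 3 period genes at log2 changes of 0.29 to 0.7 line by line. SY200/V50 against SY200 called 0, 2 and 3 members lower at 3, 6 and 12 h, where 0.1%, 12% and 21.5% of genes were. As the mean of times it called 7 lower, where 22.2% of genes were: BHLHE40 (-1.23 ± 0.20, adjusted p = 0.000137), CRY2, BHLHE41 (-0.86 ± 0.27, adjusted p = 0.0155), PER1, DBP, NR1D1 and NR1D2. The last 4 had log2 values of -0.77, -0.71, -0.68 and -0.49. The calls of BHLHE40, CRY2 and DBP held without each library in turn. Those of NR1D1 and NR1D2 ended when any 1 of 7 libraries was left out and were at -1.10 and -0.75 without the SY200/V50 12 h library of MDA-MD-468, that of PER1 with 1 of 10, and that of BHLHE41 without the SY200 12 h (-0.59, adjusted p = 0.0678) or SY200/V50 12 h (-0.75, adjusted p = 0.0539) library of MDA-MD-231. PER1 also lost its call with the DESeq2 size factors (-0.74, adjusted p = 0.0551) and with no filter on low counts (-0.79, adjusted p = 0.0643).

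SY200/V50 against V50 called 5 lower as the mean of times, beside 12.4% of genes: the 3 period genes, BHLHE40 (-1.21 ± 0.20, adjusted p = 0.000833, range -1.40 to -0.94 without each library in turn and always called) and NR1D2 (-0.58 ± 0.17, adjusted p = 0.0248, a call that ended with 1 of 7 libraries left out). At 3 and 6 h this comparison called 0 members, beside 0.00529% and 0.0106% of genes. At 12 h it called 6 lower, where 18.2% of genes were: BHLHE40, CRY2, DBP, NR1D2, PER2 and PER3. DBP was lower by -1.31 ± 0.34 (adjusted p = 0.00644), or -1.01 (adjusted p = 0.0867) without the V50 12 h library of MDA-MD-468. NR1D2 was lower by -1.08 ± 0.30 (adjusted p = 0.00927), or -0.63 (adjusted p = 0.165) without the SY200/V50 12 h library of MDA-MD-231 and -0.68 (adjusted p = 0.154) without the V50 12 h library of MDA-MD-468, and -1.77, still called, without the SY200/V50 12 h library of that line. BHLHE40 was lower by -1.03 ± 0.35 (adjusted p = 0.028), a call that ended without the SY200/V50 12 h library of either line (-0.95 and -1.27) or the V50 12 h library of MDA-MD-231 (-0.74). The members' median at 12 h was -1.06, beside 0.24 for all genes.

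**Figure D3:**
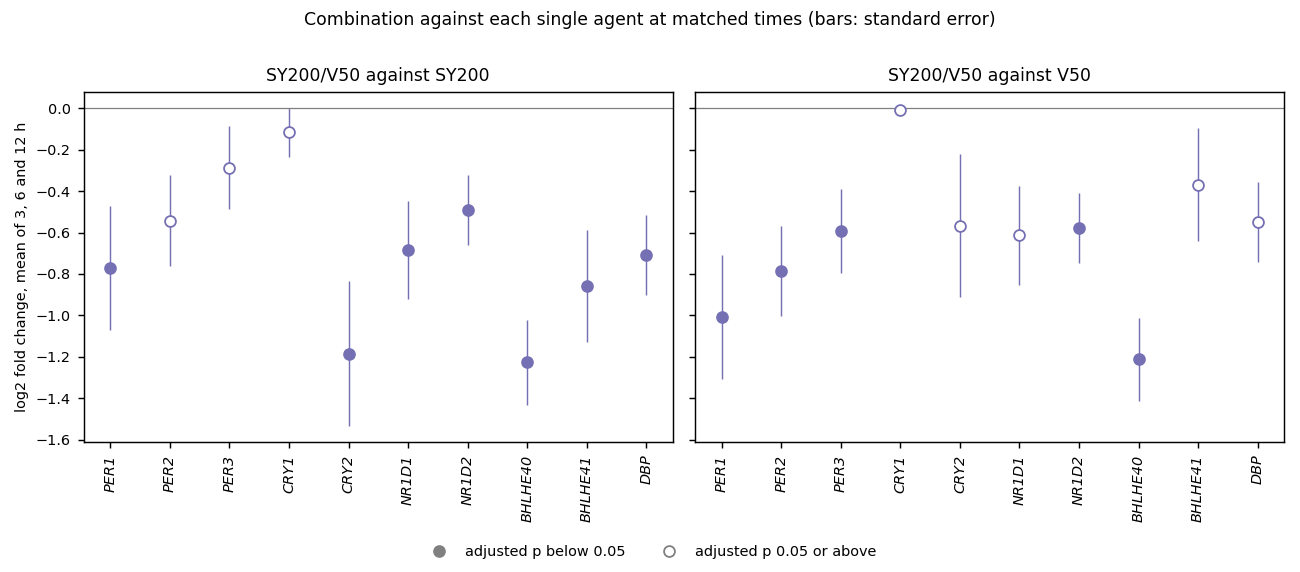
Log2 fold change of each transcript with SY200/V50 against SY200 (left) and against V50 (right) as the mean of 3, 6 and 12 h, with standard errors as bars (left out within 0.1 of 0) and filled points where adjusted p is below 0.05. BHLHE40 is lowest in both panels, at -1.23 and -1.21, and CRY1 is near 0 in both.

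Within a treatment, the members moved between 3 and 12 h under V50 and the combination. SY200 called 0 members between these times, where 1.95% of genes passed. BHLHE41 had an unadjusted p under 0.05 there, and DESeq2 called 0. V50 gave 5 members higher at 12 h than at 3 h, where 7.97% of genes were: PER1, NR1D1, CRY2, PER2 and BHLHE40. SY200/V50 gave 3 higher, where 9.57% of genes were: PER1, NR1D1 and BHLHE40. With edgeR and TMM scaling no member was called lower at 12 h than at 3 h, while DESeq2 called CRY1 lower with SY200/V50 (-0.55, adjusted p = 0.0242). Under mitochondrial scaling, with the median of all genes at -1.13, PER1, NR1D1 and BHLHE40 were no longer called with the combination (0.43, 0.36 and 0.10, adjusted p from 0.464 to 0.808). The 5 members called there were lower at 12 h, at -2.04 (BHLHE41), -1.94 (DBP), -1.73 (CRY1), -1.55 (PER3) and -1.41 (NR1D2), where 10440 of 18911 genes were lower. PER2, for instance, was 3.19-fold higher at 12 h under V50 (1.68 ± 0.38, adjusted p = 0.00864).

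The 2 lines differed in most of these genes before treatment. In controls, 7 of the 10 members passed between MDA-MD-468 and MDA-MD-231, where 53.8% of all genes did, so the share was near the background. BHLHE41 (2.64 ± 0.45), PER3 (2.25 ± 0.37), PER2 (1.87 ± 0.32), CRY2 (1.77 ± 0.40), DBP (1.49 ± 0.31) and BHLHE40 (1.38 ± 0.31) were higher in MDA-MD-468, with adjusted p from 0.000132 to 0.00173. CRY1 was lower there (-1.52 ± 0.20, adjusted p = 1.62e-05). These 7 calls held without each library in turn. BHLHE40 was at 1.13 (adjusted p = 0.0615) with DMSO alone as control. PER1 (0.06), NR1D1 (-0.17) and NR1D2 (-0.55 ± 0.27, adjusted p = 0.0977) did not pass. DMSO against parental called 0 members and 0.037% of genes with edgeR, with 0 members at an unadjusted p under 0.05 and 0 called by DESeq2.

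In the knockout experiment the targeted genes were first checked. CDK1 was at 178 and 283 CPM with the empty vector at 72 and 96 h and at 81.7 and 84.3 CPM in CDK1 KO. CDK7 fell from 49.0 and 66.5 CPM to 15.3 and 13.7 CPM in CDK7 KO, and to 15.6 and 17.1 CPM in CDK7/9 KO. CDK9 fell from 70.4 and 62.1 CPM to 33.2 and 36.4 CPM in CDK9 KO, and to 34.3 and 36.6 CPM in CDK7/9 KO. Each targeted transcript was lower at both times, although a 3' tag may lie outside the edited part and the edit is not described.

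CDK1 KO raised 3 members, where 0.322% of all genes were higher. NR1D1 was at 33.5 and 24.4 CPM with the empty vector and at 52.6 and 60.6 CPM in CDK1 KO at 72 and 96 h (0.98 ± 0.16, adjusted p = 0.0338). PER1 was at 18.2 and 14.5 CPM with the vector and at 29 and 32.9 CPM in CDK1 KO (0.92 ± 0.15, adjusted p = 0.0297). BHLHE40 was at 63.3 and 55.2 CPM with the vector and at 88.8 and 93.3 CPM in CDK1 KO (0.63 ± 0.10, adjusted p = 0.027). In all 3 genes the CDK1 KO libraries are the 2 highest of the 11. Under mitochondrial scaling none of the 3 was called, at 0.66, 0.59 and 0.29 for NR1D1, PER1 and BHLHE40 (adjusted p from 0.203 to 0.398), with the median of all genes at -0.32. With 4 residual degrees of freedom, each of these calls ended when any 1 of 8 of the 10 libraries was left out. Over all 10 omissions the change ran from 0.69 to 1.26 for NR1D1, from 0.67 to 1.16 for PER1 and from 0.51 to 0.73 for BHLHE40. Without either empty vector library that group has 1 library, so the number of called members over the omissions is not read as a result.

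PER3 was the member that passed where CDK9 was targeted. It was at 10.1 and 7.27 CPM with the empty vector at 72 and 96 h, at 14.1 and 18.1 CPM in CDK9 KO, and at 14.6 and 17.2 CPM in CDK7/9 KO. In CDK7 KO it was at 10.6 and 10.9 CPM, and Parental 2 held 10.1 CPM. The 4 libraries with CDK9 targeted are the highest of the 11. PER3 rose in CDK9 KO (0.89 ± 0.18, adjusted p = 0.0204), where 4.34% of genes were higher, and in CDK7/9 KO (0.87 ± 0.18, adjusted p = 0.017), where 5.72% were. These comparisons share the empty vector libraries. The CDK9 KO call ended without its 72 h (1.05, adjusted p = 0.0557) or 96 h (0.71, adjusted p = 0.287) library, or without either CDK7 KO library (0.87, adjusted p = 0.0527 and 0.0524). The CDK7/9 KO call ended without its 72 h (0.95, adjusted p = 0.102) or 96 h (0.77, adjusted p = 0.21) library. Without the empty vector library at 96 h PER3 was at 0.57 and 0.55. Over all 10 omissions PER3 ran from 0.57 to 1.22 in CDK9 KO and from 0.55 to 1.20 in CDK7/9 KO. Mitochondrially encoded mRNAs took 3.77% and 2.60% of counts with the empty vector and 5.04% to 5.98% in the 4 libraries with CDK9 targeted, and their part was not tested. Under scaling to them PER3 was at 0.09 in CDK9 KO and 0.10 in CDK7/9 KO, and the median of all genes was at -0.82 and -0.81.

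CDK7 KO called 0 members and 0.0238% of genes, with 0 members at an unadjusted p under 0.05 and 0 called by DESeq2. Leaving out the empty vector library at 72 h changed this to 5 members and raised the count of all genes called from 4 to 6239. NR1D2, for example, was at 94.4 and 150 CPM with the empty vector at 72 and 96 h and between 93.3 and 105 CPM in the 8 knockout libraries. Between 72 and 96 h, 0 members and 0.0536% of genes passed, with 1 member, BHLHE41, at an unadjusted p under 0.05 and 0 called by DESeq2.

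**Figure D4:**
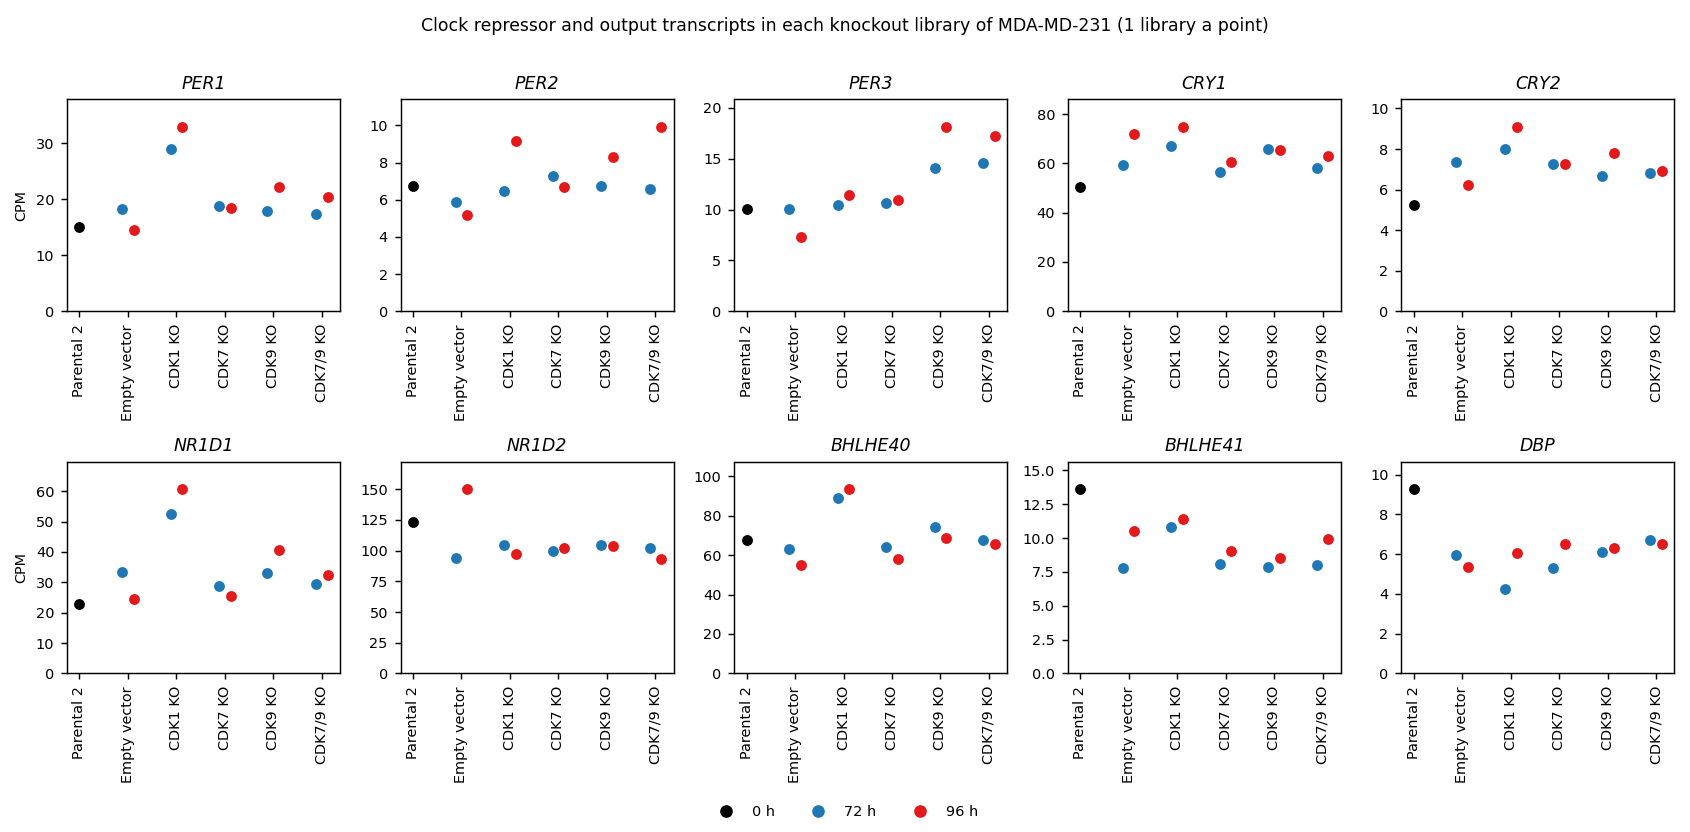
Level of each of the 10 transcripts in CPM (linear axis from 0) in the 11 knockout libraries of MDA-MD-231, by genotype, 1 point a library, with black, blue and red for 0, 72 and 96 h. The CDK1 KO points are the highest for PER1, NR1D1 and BHLHE40, and the CDK9 KO and CDK7/9 KO points are the highest for PER3, at 14.1 to 18.1 CPM.

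Other genes of the clock are given beside all genes, of which SY200/V50 as the mean of times called 24.2% lower and 24% higher. Among 7 activators, 4 were lower with SY200/V50 as the mean of times and 0 higher: RORA (-3.74 ± 0.90, adjusted p = 0.00284), ARNTL (-1.01 ± 0.26, adjusted p = 0.00385), RORB and CLOCK (-0.36 ± 0.14, adjusted p = 0.0492). With V50 2 of the 7 were lower, ARNTL (-0.89 ± 0.25, adjusted p = 0.0192) and CLOCK. Of 13 modifiers and partners of clock proteins, 4 were lower and 2 higher with SY200/V50, among them USP2, a deubiquitinase, at -2.23 ± 0.32 (adjusted p = 3.28e-05) and SIRT1, a deacetylase, at -2.33 ± 0.35 (adjusted p = 3.95e-05). TIMELESS (0.94 ± 0.14, adjusted p = 5.13e-05), which also works in replication, was higher. With V50, 3 were lower and 2 higher. The share of modifiers called in either direction with SY200/V50, 46.2%, is near the 48.2% of all genes. With V50, 11.9% of all genes were lower and 10.4% higher.

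Of the 3 other output factors, 2 were lower with SY200/V50. NFIL3, the D-box repressor that opposes DBP, was at -2.09 ± 0.37 (adjusted p = 0.000233), and TEF, a relative of DBP, at -0.89 ± 0.27 (adjusted p = 0.012), and 0 passed with V50. Of 8 clock-controlled genes, 3 were lower with the combination, KLF9, WEE1 and ALAS1, at -2.30, -1.08 and -0.38, and 1 with V50, and with lists this short these counts are descriptions. SY200 called 0 genes of these 4 lists as the mean of times, where 375 of 18911 genes passed. The list medians with SY200/V50 were -0.63 for activators, -0.37 for modifiers, -0.89 for other output factors and -0.36 for clock-controlled genes, beside 0.09 for all genes. In the knockouts, 5 activators were tested and 0 passed in any genotype. Of the 8 clock-controlled genes, KLF10 was higher in CDK1 KO (0.71 ± 0.09, adjusted p = 0.0161), where 0.322% of all genes were. In CDK9 KO 1 was higher, beside 4.34% of genes, and in CDK7/9 KO 1 was higher and 1 lower, beside 5.72% and 5.62%. At 96 against 72 h 1 was higher, beside 0.0238% of genes.

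Across the 22 inhibitor libraries, with log2 CPM centred within each line, PER2 and NR1D1 had the highest correlation of any pair of members (Pearson r = 0.83), followed by PER1 and PER2 (0.82), PER1 and NR1D1 (0.80) and PER2 and CRY2 (0.78). BHLHE41 and DBP were at 0.75. The lowest values were those of CRY1, at -0.53 with PER2 and -0.46 with PER1. The libraries share treatments and times, so these are descriptions. Among genes with a mean of at least 10 CPM, the 3 most like each member by the same measure were as follows. For PER1 they were LATS2, ZNF558 and RYBP (0.87 to 0.90), for PER2 TAF5L, C1orf174 and KLF11 (0.91 to 0.92), and for PER3 HAUS6, TFAM and CRCP (0.81 to 0.86). CRY1 was most like FUT8, ATP6V0A2 and WDR70 (0.84 to 0.86), and CRY2 most like NAA30, CBFA2T2 and APPBP2 (0.95 to 0.96). NR1D1 had CASP8AP2, ERRFI1 and C12orf65 (0.90 to 0.92), and NR1D2 had DDX6, WDR73 and CTDSPL2 (0.86 to 0.88). BHLHE40 had AMOTL2, ZFP36 and SERTAD3 (0.91 to 0.92), BHLHE41 had ARID5B, VDR and SNX33 (0.89 to 0.92), and DBP had IRF2, TEAD3 and SASS6 (0.88 to 0.91).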

How the data were processed

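Poly(A) RNA of 33 libraries was profiled by 3' tag sequencing (QuantSeq), and the deposited table holds raw read counts per gene, per the file headers. STAR 2.7.10a, FastQC and the GRCh38 build are named in the submitters' processing notes. No source used here names the counter, the annotation, the strand setting or the handling of molecular identifiers. Libraries were grouped by the labels, with 1 library per line, condition and time, and total counts of 16985219 to 22859779. Counts were tested with edgeR 4.0.16 (R 4.3.3, limma 3.58.1): TMM scaling, a filter on low counts (minimum 10, total 15) and the quasi-likelihood F test with Benjamini-Hochberg adjustment over all 18911 genes tested in the inhibitor experiment and 16783 in the knockout experiment. The inhibitor model held line and 10 condition levels (11 residual degrees of freedom), and the knockout model time and genotype (4, Parental 2 left out). Other fits served the line differences (8) and the controls (10). A standard error is the log2 fold change divided by the square root of F. CPM rests on TMM-scaled library sizes for single genes and on total counts for the marker lists, and is not divided by length. Alternatives were DESeq2 1.42.0, its size factors, scaling to 13 mitochondrially encoded mRNAs, no filter, DMSO or parental alone as control, no block for line or time, and each library left out in turn. When a library is left out, its condition and time has 1 sample, assumed to vary like the other groups. The scripts were tested on simulated data. The members and gene lists were chosen with earlier results of these data known. Genes named outside the members are up to 4 per list by smallest adjusted p, the 3 most like each member by Pearson correlation over 22 libraries, the targeted genes, and THRA and SPHK2, chosen for their overlap with members. 1 gene that the rule would name is not reported here.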

Additional observations from a re-analysis of the deposited data

Results flagged for a closer look

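Under the same agent, 12 h against 3 h differed by test for 5 members with V50 and 3 with SY200/V50. With V50, PER1 was higher at 12 h by log2 2.14 ± 0.52 (adjusted p = 0.0135, edgeR), NR1D1 by 2.12 ± 0.42 (adjusted p = 0.0044), CRY2 by 1.94 ± 0.60 (adjusted p = 0.0424), PER2 by 1.68 ± 0.38 (adjusted p = 0.00864) and BHLHE40 by 1.17 ± 0.35 (adjusted p = 0.0352). With SY200/V50, PER1 was higher by 1.64 ± 0.53 (adjusted p = 0.0404), NR1D1 by 1.58 ± 0.42 (adjusted p = 0.0159) and BHLHE40 by 1.29 ± 0.36 (adjusted p = 0.0195). The rise was present in both lines for each of these genes and agents. Every one of these calls ended without some library of 3 or 12 h. That of CRY2 with V50 ended when any 1 of 10 libraries was left out, and that of PER1 with SY200/V50 with 1 of 9. With the DESeq2 size factors, CRY2 and BHLHE40 under V50 lost their calls (edgeR adjusted p = 0.0535 and 0.051). With no filter on low counts, these 2 calls (0.0665 and 0.0595) and that of PER1 under SY200/V50 (0.0723) also ended. Without the SY200/V50 12 h library of MDA-MD-468, NR1D1 and PER1 under the combination were at 0.31 (adjusted p = 0.674) and 0.88 (adjusted p = 0.379). Without the V50 3 h library of MDA-MD-231, BHLHE40 under V50 was at 0.64 (adjusted p = 0.358), and without that of MDA-MD-468 it was at 2.00 and still called.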

How the results depend on the processing

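Without the block for line, 0 members passed in the inhibitor comparisons. Scaling to mitochondrially encoded mRNAs moved the median of all genes to -1.33 with SY200/V50, -0.92 with V50 and -0.44 with SY200 as means of times, and reversed these values. In CDK7/9 KO, BHLHE40, CRY2, NR1D1 and PER1 were at -0.62, -0.77, -0.67 and -0.57. In CDK9 KO, BHLHE40, CRY1, CRY2, DBP and PER1 were at -0.54, -0.82, -0.72, -0.66 and -0.52. With SY200/V50, NR1D1, PER1 and PER2 were at -2.02, -1.51 and -1.76 at 12 h, CRY1 and NR1D2 at -0.82 and -0.72 at 3 h, and NR1D2 at -1.42 as the mean. With V50, PER3 was at -0.92 at 6 h and NR1D2 at -0.32 as the mean. The median of all genes under this scaling was -0.77 and -1.92 with SY200/V50 at 3 and 12 h, and -0.93 with V50 at 6 h. Those of CDK9 KO and CDK7/9 KO are given above with PER3.

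Members called under that scaling numbered 0 in CDK1 KO, 7 in CDK9 KO and in CDK7/9 KO, 2 and 4 with SY200 at 3 h and as the mean, 8, 6 and 6 with V50 at 3 h, 6 h and as the mean, 5 for V50 against SY200, 9, 10, 10 and 10 with SY200/V50 at 3, 6 and 12 h and as the mean, 10 against V50 (mean and 12 h), and 5 for SY200/V50 at 12 against 3 h. Of the 18911 genes tested, this scaling called 1693 with SY200 at 3 h and 5299 as the mean. With V50 it called 7768 at 3 h, 11065 at 6 h and 14273 as the mean. V50 against SY200 had 7518. SY200/V50 had 8685, 14303, 16089 and 15832 at 3, 6 and 12 h and as the mean. SY200/V50 against V50 had 6607 as the mean and 7635 at 12 h, and SY200/V50 at 12 against 3 h had 10596. With no filter, CDK7/9 KO had 2 called members, V50 at 12 against 3 h 3, V50 at 3 h 0 and its mean 1. With the DESeq2 size factors, V50 at 12 against 3 h had 3 and V50 at 3 h 0. With DMSO alone, V50 at 3 h and its mean had 1. With parental alone, SY200/V50 at 3 h and the V50 mean had 1, and V50 at 3 h 0. The DESeq2 test called 1 line difference for SY200/V50.

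Of all genes, SY200 as the mean of times called 375, against 227 with no filter, 973 with the DESeq2 test, 5299 with mitochondrial scaling, 28 with DMSO alone, 174 with parental alone and 0 with no line block. V50 called 4225, against 14273 with that scaling, 1458 with parental alone and 103 with no line block. SY200/V50 called 9114, against 15832 and 2364 with that scaling and no line block. CDK1 KO called 59, against 1742 with no filter and 412 with DESeq2, CDK7 KO 4, against 996 and 203, CDK9 KO 1369, against 2782 with no filter and 11411 with that scaling, and CDK7/9 KO 1903, against 3212 and 11138. The causes were not tested.

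The number of all genes called also moved when a library was left out, so the counts of members here are descriptions. Leaving out 1 library moved the number of called members in each comparison of a knockout with the empty vector. With V50 it gave 0 to 2 at 3 h, at 6 h and as the mean, 1 to 4 at 12 h and 0 to 6 for 12 against 3 h. With SY200/V50 against control it gave 1 to 2 at 3 h, 0 to 4 at 6 h and 3 to 6 at 12 h. For SY200/V50 at 12 against 3 h it gave 0 to 3, and for the line difference 0 to 1. As means of times it gave 3 to 8 for SY200/V50 against SY200 and 1 to 7 against V50, and against V50 at 12 h it gave 1 to 6. NR1D1 with SY200/V50 at 12 h turned to -1.24 without the MDA-MD-468 library and was at 0.67 without the MDA-MD-231 one. Each group has 1 library and so no replicate numbers to pair on. Libraries were instead matched within line or within time, by the block in the fits.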
